A study of Homo sapiens with 18 samples.

Results

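K562 cells carrying dCas9 without a repressor domain and the gRNA CR4, which is aimed at the HS2 enhancer of the beta-globin cluster, were compared with K562 cells carrying dCas9-KRAB and no gRNA. The comparison used 6 of the 18 RNA-seq libraries of the series, taken by their titles: 3 of the first group, called dCas9_CR4, and 3 of the second, called KRAB_no_gRNA. K562 is a human leukaemia line with red-cell features that expresses embryonic and fetal globin genes. dCas9 is a Cas9 protein that can no longer cut DNA but is still led to a site by its gRNA, and KRAB is a domain that recruits repressive chromatin factors. Both groups received lentivirus with 4 µg/ml polybrene and were selected with 1 µg/ml puromycin from 96 hours after transduction. The labels describe both as control groups. They differ in the gRNA and in the KRAB domain at the same time, and no group carried dCas9 without a gRNA, so the contributions of the gRNA and of the missing KRAB domain cannot be told apart. The other groups, also of 3 libraries each, were dCas9_CR10 (dCas9 with a gRNA named CR10 to the same enhancer), KRAB_CR4 and KRAB_CR10 (dCas9-KRAB with each gRNA) and no_lentivirus (untransduced cells). All of them are 1 cell line, and whether the puromycin-selected cells were pools or clones is not given in the labels.

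HS2 is 1 of the DNase-hypersensitive sites of the locus control region, a group of enhancers that lies upstream of the beta-like globin genes and contacts their promoters. Erythroid factors such as GATA1, TAL1 and the NF-E2 complex bind there. The genes stand along chromosome 11 in the order of their use in development, with the embryonic HBE1 first, the fetal HBG2 and HBG1 next, the pseudogene HBBP1 between fetal and adult genes, and the adult HBD and HBB last. A bound dCas9 can itself stand in the way of other proteins, which is why a dCas9 group with the same gRNA is used beside a KRAB fusion.

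The 6 libraries held between 22805964 and 32364862 counts, and 14713 genes were tested. All 12 markers of K562 identity, among them GATA1, TAL1, TFRC and the embryonic and fetal globin genes, were detected in each of the 6 libraries, with a summed level of 4280 to 5011 CPM (counts scaled to the size of the library) in KRAB_no_gRNA and 3946 to 4774 CPM in dCas9_CR4. Markers of other blood lineages were present as well. Of 20 megakaryocyte genes 3 (GP9, PF4 and SELP) and of 26 myeloid and lymphoid genes 2 (ELANE and MS4A1) were at 0 in all 6 libraries, and 14 of each list passed the filter on low counts, among them PTPRC at 85.8 CPM in dCas9_CR4 and 73.1 CPM in KRAB_no_gRNA, CD68 at 47.4 and 49.6 CPM, F2R at 64.9 and 61.7 CPM and GP1BB at 28.3 and 32.2 CPM. Ribosomal RNA took 0.596% to 1.087% of the counts in KRAB_no_gRNA and 0.953% to 1.496% in dCas9_CR4. In the lentiviral groups, libraries numbered 3 stood apart from those numbered 1 and 2 on the first principal component. This component held 35.4% of the variance of the most variable genes over all 18 libraries. The untransduced libraries 1, 2 and 3 lay on it at 2.86, 53.69 and 23.47, with number 3 between the others. In the 2 compared groups, libraries of the same number deviated together, with correlations of 0.543, 0.342 and 0.765 over 12604 genes. Those of different numbers ranged from -0.706 to 0.495, the highest being dCas9_CR4 library 1 with KRAB_no_gRNA library 2, so the separation is clearest for number 3. A fit with the library number as a block is given beside the fit of all 18 libraries where it differs. Nothing in the labels says whether the 3 transductions used separate cultures grown on separate days, so p-values measure the spread between these libraries.

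No gene passed an adjusted p of 0.05 (edgeR quasi-likelihood test, Benjamini-Hochberg adjustment) between dCas9_CR4 and KRAB_no_gRNA, which is 0% of the genes tested. The count was also 0 with the library number as a block in the 15 lentiviral libraries and with DESeq2. At an unadjusted p under 0.05, 40 genes were higher (0.272%) and 26 lower (0.177%) with all 18 libraries, 195 were higher (1.34%) and 72 lower (0.493%) with the block, and DESeq2 counted 45 higher (0.306%) and 25 lower (0.17%). In 1428 genes (9.71%) all 3 dCas9_CR4 libraries lay above the KRAB_no_gRNA library of their own number, and in 1272 (8.65%) all 3 lay below it. The 3 dCas9_CR4 libraries lay above all 3 KRAB_no_gRNA libraries in 219 genes (1.49%) and below all of them in 166 (1.13%). The median log2 fold change over all genes was 0.00. The precision of these comparisons depended on the level of a gene. Among 6517 genes with a mean of 10 to 100 CPM, the 95% interval of the log2 fold change lay within a 2-fold change in either direction for 6387 (98.0%), against 65.6% of genes at 1 to 10 CPM and 2.5% of those under 1 CPM.

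**Figure D1:**
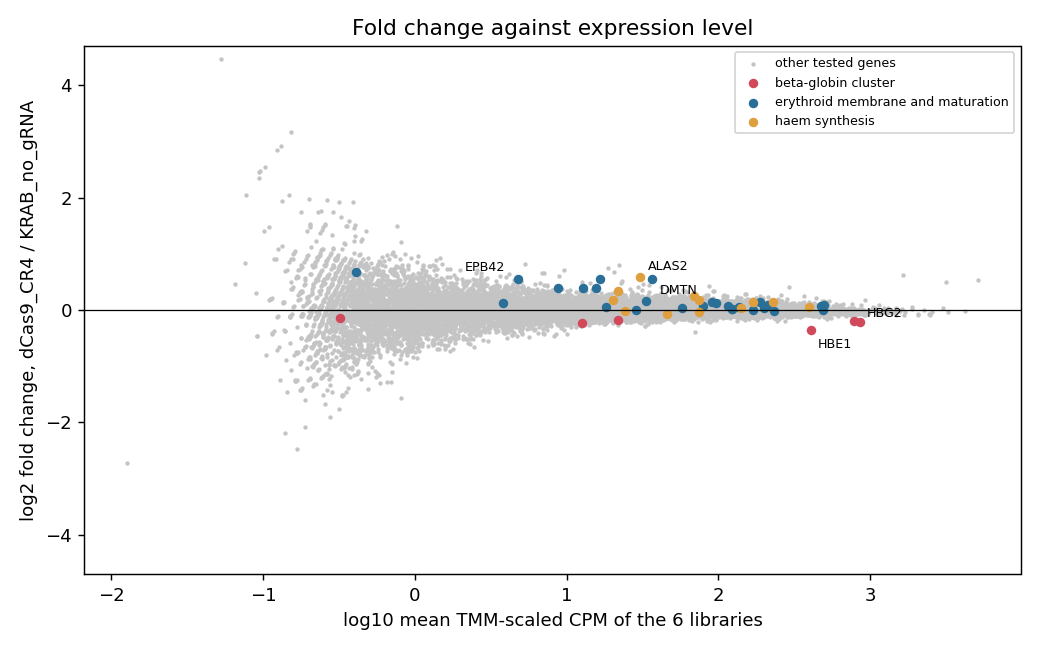
Log2 fold change of dCas9_CR4 over KRAB_no_gRNA (vertical axis) against the log10 mean CPM of the 6 libraries (horizontal axis), 1 point per tested gene, with 3 gene lists in colour. The spread narrows with rising level, the 6 genes of the beta-globin cluster lie below 0 and ALAS2, EPB42 and DMTN lie above it, and none of the 14713 points passed the adjusted threshold.

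The beta-globin genes, which the targeted enhancer serves, all read lower on average in dCas9_CR4, but none passed the test. HBE1 (NM_005330), which encodes the embryonic epsilon-globin chain, stood at 329, 402 and 346 CPM in dCas9_CR4 libraries 1, 2 and 3 and at 437, 468 and 467 CPM in KRAB_no_gRNA. It was the 1 gene of the cluster whose groups did not overlap, with every dCas9_CR4 library below every KRAB_no_gRNA library. The means were 359 ± 38.2 CPM and 457 ± 17.8 CPM (SD, n = 3 each), so the level was 78.5% of that without a gRNA. Against the library of the same number it was 75.3%, 85.9% and 74.0%. The log2 fold change was -0.35 (95% interval -0.63 to -0.06), and with the block it was -0.35 (-0.58 to -0.12). The adjusted p from edgeR was 1 in both fits. An exact two-sided permutation test of the 6 CPM values gave p = 0.1, the smallest that 3 libraries against 3 can give.

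The fetal gamma-globin genes HBG2 and HBG1 showed a smaller difference, and their groups overlapped through 1 library. HBG2 (NM_000184) read 725, 916 and 745 CPM in dCas9_CR4 against 902, 957 and 904 CPM, and HBG1 (NM_000559) read 664, 847 and 680 CPM against 817, 871 and 821 CPM. In both genes dCas9_CR4 library 2 lay among the KRAB_no_gRNA libraries, while libraries 1 and 3 lay below them all. The log2 fold change was -0.21 for HBG2 (95% interval -0.55 to 0.13) and -0.20 for HBG1 (-0.54 to 0.15). With the block the log2 fold changes were -0.22 (-0.44 to 0.00) and -0.20 (-0.41 to 0.01), and the adjusted p from edgeR was 1 for each gene in both fits. The transcripts are nearly identical, so reads may be divided between them by the authors' counting. Their summed level was 1389.3, 1762.6 and 1425.3 CPM against 1719, 1828.9 and 1725.3 CPM, a log2 fold change of -0.20 (-0.54 to 0.13) with an exact two-sided permutation p of 0.3.

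The rest of the cluster was expressed at lower levels and was measured less precisely. The pseudogene HBBP1 read 20.2, 23.6 and 17.9 CPM in dCas9_CR4 against 22.9, 23.9 and 22.9 CPM, a log2 fold change of -0.17 (95% interval -1.11 to 0.76). The adult delta-globin gene HBD read 13.7, 15.1 and 6.13 CPM against 13.1, 17.7 and 10.3 CPM. Its log2 fold change of -0.23 turned positive when dCas9_CR4 library 3 was left out (0.06), and the groups overlapped throughout. HBB, the adult beta-globin gene, had only 10, 12 and 4 counts against 8, 10 and 8, so a difference in it was not detectable at this depth. Over the 6 cluster genes the median log2 fold change was -0.20. At an unadjusted edgeR p under 0.05, 1 was lower with all libraries, where 0.177% of all genes were, and 3 with the block, where 0.493% were. The near-identical HBG2 and HBG1 are among those 3, so they are not separate results.

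**Figure D2:**
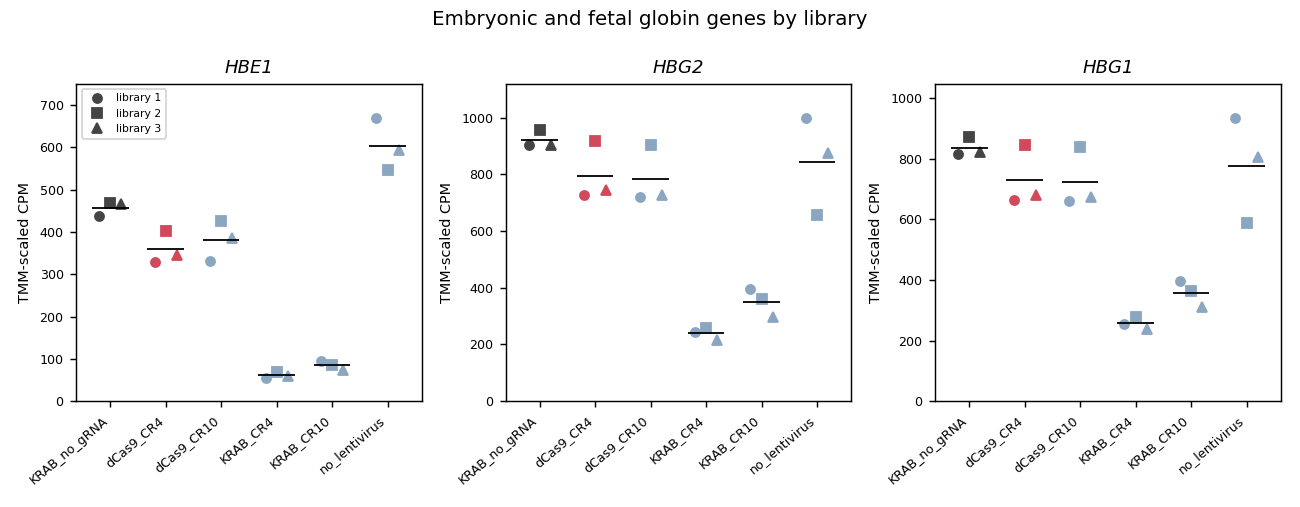
CPM of HBE1, HBG2 and HBG1 in each library (vertical axis, starting at 0) by group (horizontal axis), with 1 symbol per library number and a bar at the group mean. The dCas9_CR4 and dCas9_CR10 libraries lie close to each other, somewhat below KRAB_no_gRNA for HBE1, and far above KRAB_CR4 and KRAB_CR10.

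The size of the HBE1 difference can be set beside the other groups. HBE1 stood at 332, 425 and 386 CPM in dCas9_CR10 and at 55.8, 68.1 and 60.7 CPM in KRAB_CR4, which is 13.5% of KRAB_no_gRNA. All 12 libraries with a gRNA lay below all 3 KRAB_no_gRNA libraries. The untransduced cells read 670, 546 and 595 CPM, above every transduced library. Between dCas9_CR4 and dCas9_CR10 the log2 fold change of HBE1 was -0.09 (95% interval -0.37 to 0.20), that of HBG2 was 0.02 (-0.32 to 0.36) and that of HBG1 was 0.01 (-0.33 to 0.36). No gene of any kind passed between the 2 dCas9 groups (0% adjusted, with edgeR with or without the block and with DESeq2 without it). At an unadjusted p under 0.05 from edgeR, 45 were higher (0.306%) and 92 lower (0.625%), and with the block 503 were higher (3.45%) and 421 lower (2.88%). Against KRAB_no_gRNA, a control that both dCas9 groups share, dCas9_CR10 gave -0.26 for HBE1, -0.23 for HBG2 and -0.21 for HBG1.

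The alpha-globin cluster on chromosome 16, which HS2 does not serve, read slightly higher in dCas9_CR4, and none of its 4 tested genes passed. HBZ, the embryonic zeta-globin gene, read 288, 343 and 224 CPM against 231, 309 and 168 CPM. Its log2 fold change was 0.27 (95% interval -0.39 to 0.94), and with the block 0.29 (0.02 to 0.56), at an adjusted edgeR p of 1 in both fits. Without KRAB_no_gRNA library 2 it was 0.52, without KRAB_no_gRNA library 3 it was 0.09, and without dCas9_CR4 library 2 it was 0.13. Each dCas9_CR4 library exceeded the KRAB_no_gRNA library of its own number: the same-number levels were 124.8%, 111.1% and 133.2%, while the groups overlapped. The near-identical HBA1 and HBA2, which encode the alpha chain, had log2 fold changes of 0.11 and 0.12. Both turned slightly negative without dCas9_CR4 library 2. HBQ1 stood at 11.2 ± 1.71 CPM against 11.1 ± 1.80 CPM (SD, n = 3 each), and HBM was too low to test.

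Genes that flank the beta-globin cluster and genes that act on it read much the same on average in both groups. Of 31 neighbours on chromosome 11, 24 were tested, and 17 had a log2 fold change above 0, with none past an unadjusted p of 0.05 in either fit and a median of 0.03. STIM1, a calcium sensor, stood at 172.6 CPM against 169.2 CPM, and RRM1, a subunit of ribonucleotide reductase, at 304.0 CPM against 314.9 CPM. Of 23 tested regulators of HS2 and the globin genes, none passed an unadjusted p of 0.05 either, although 20 had a log2 fold change above 0, at a median of 0.04. The erythroid factors GATA1 and TAL1 read 217.2 against 203.4 CPM and 189.4 against 176.6 CPM, and KLF1, an activator of red-cell genes, 117.1 against 112.0 CPM. The 18 genes of the KRAB co-repressor machinery had a median of 0.01. TRIM28, the factor that KRAB binds, stood at 952.9 CPM against 974.8 CPM, and SETDB1, a histone methyltransferase it recruits, at 61.4 CPM against 64.8 CPM. ZNF10, the gene from which the commonly used KRAB domain is taken, read 6.32 ± 0.701 CPM against 6.48 ± 1.09 CPM (SD, n = 3 each), a log2 fold change of -0.04 (95% interval -0.48 to 0.41).

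Several red-cell genes outside the globin clusters read higher in dCas9_CR4, with ALAS2 first among all genes by p. ALAS2 on chromosome X encodes the erythroid form of aminolevulinate synthase, the first enzyme of haem synthesis. It read 35.9, 41.2 and 33.2 CPM in dCas9_CR4 against 24.9, 26.9 and 21.7 CPM in KRAB_no_gRNA, and every library of the first group lay above every library of the second. The means were 36.8 ± 4.05 CPM and 24.5 ± 2.61 CPM (SD, n = 3 each), a 1.5-fold difference. The log2 fold change was 0.59 ± 0.15 (SE, 95% interval 0.27 to 0.91) with all libraries, at an adjusted edgeR p of 1, and 0.59 ± 0.11 (SE, 0.34 to 0.84) with the block, at an adjusted edgeR p of 0.149. The exact two-sided permutation p was 0.1, again the smallest possible, a value that any gene without overlap gets. Since ALAS2 was brought forward by its p, this adds no separate support.

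Of the 12 genes of haem synthesis, 9 had a log2 fold change above 0, at a median of 0.14, against 7525 of all 14713 genes. ALAS2 was higher at an unadjusted edgeR p under 0.05 with all libraries, where 0.272% of all genes were. PPOX and SLC25A37 joined it with the block, where 1.34% were. PPOX encodes protoporphyrinogen oxidase, a late enzyme of the pathway, and read 20.1, 26.3 and 26.9 CPM against 18.2, 17.2 and 22.7 CPM (log2 fold change 0.33, 95% interval -0.10 to 0.77). SLC25A37, or mitoferrin, brings iron into mitochondria. It read 70.1, 69.9 and 85.2 CPM against 65.5, 51.9 and 72.5 CPM, a log2 fold change of 0.25 with overlapping groups. The housekeeping form ALAS1 stood at 44.9 CPM against 47.3 CPM, and FECH, which inserts the iron, at 178.0 CPM against 161.4 CPM. Of 13 tested genes of iron uptake and storage, none passed an unadjusted p of 0.05 in either fit, and their median was 0.01.

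Among 27 tested genes of the red-cell membrane and of red-cell maturation, 26 had a log2 fold change above 0, the exception being ADD2 (-0.01). Over all genes tested the number above 0 was 7525 of 14713. The median of the list was 0.09, and 5 members were higher at an unadjusted p under 0.05 with all libraries, where 0.272% of all genes were, and 6 with the block, where 1.34% were. Without KRAB_no_gRNA library 1 or dCas9_CR4 library 2 the 5 became 2, and in the 2 groups alone without the block they became 3. None was lower, and none passed the adjusted threshold. The near-identical copies RHD and RHCE are among the 5 and among the 6, so they are not separate results. The number above 0 was 19 without KRAB_no_gRNA library 3 and 20 without dCas9_CR4 library 1 or library 2. The summed level of the list was 3825, 3582 and 3252 CPM in dCas9_CR4 against 3489, 3584 and 3084 CPM, and the sums overlapped between the groups. Against the same KRAB_no_gRNA libraries, dCas9_CR10 gave a list median of 0.12.

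SLC4A1 encodes band 3, the anion exchanger of the red-cell membrane. It read 25.1, 21.6 and 12.4 CPM in dCas9_CR4 libraries 1 to 3 against 17.2, 15.0 and 8.29 CPM in KRAB_no_gRNA. The number-3 libraries were lowest in both groups, so the groups overlapped, yet each dCas9_CR4 library stood at 146.1%, 144.3% and 149.8% of the KRAB_no_gRNA library of its own number. The log2 fold change was 0.55 (95% interval -0.16 to 1.26) with all libraries and 0.55 (0.31 to 0.79) with the block. It was 0.30 without KRAB_no_gRNA library 3 and 0.34 without dCas9_CR4 library 1. The adjusted p from edgeR was 1 and 0.149 in these 2 fits. DMTN encodes dematin, an actin-bundling protein of the membrane skeleton, and read 37.2, 48.2 and 45.8 CPM against 29.2, 27.8 and 32.5 CPM with no overlap (log2 fold change 0.55, at an adjusted edgeR p of 0.559 with the block). EPB42, or protein 4.2, which ties band 3 to the skeleton, read 5.00, 5.37 and 6.88 CPM against 3.57, 4.18 and 3.92 CPM, also with no overlap, a log2 fold change of 0.56 (0.17 to 0.96).

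The blood-group genes RHD and RHCE lie next to each other on chromosome 1 and are near-identical copies, so their separate values are uncertain. RHD read 15.9, 20.0 and 17.6 CPM against 12.2, 13.9 and 14.4 CPM, and RHCE read 12.3, 16.8 and 14.7 CPM against 10.5, 10.6 and 12.1 CPM. In both genes the groups did not overlap, and the log2 fold change was 0.40. CA1, a red-cell carbonic anhydrase, read 9.97 ± 1.46 CPM against 7.60 ± 1.87 CPM (SD, n = 3 each) with overlapping groups. The water channel AQP1, the glycine transporter SLC6A9 and the blood-group adhesion molecule ICAM4 are red-cell genes outside that list. AQP1 and ICAM4 were singled out after their values were seen. SLC6A9 was named through the list of amino acid transporters, and its library 3 was highest in both groups. AQP1 read 12.2, 14.2 and 9.74 CPM against 6.89, 7.37 and 7.60 CPM, a log2 fold change of 0.72 (95% interval 0.02 to 1.43, at an adjusted edgeR p of 0.149 with the block). ICAM4 read 36.2, 45.7 and 33.7 CPM against 31.5, 31.6 and 29.8 CPM, and SLC6A9 27.4 ± 6.70 CPM against 19.1 ± 2.54 CPM (SD, n = 3 each), both with no overlap. By contrast ANK1, which encodes the ankyrin that anchors band 3, had a log2 fold change of 0.07, and TMOD1, which caps actin in the membrane skeleton, had 0.01.

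**Figure D3:**
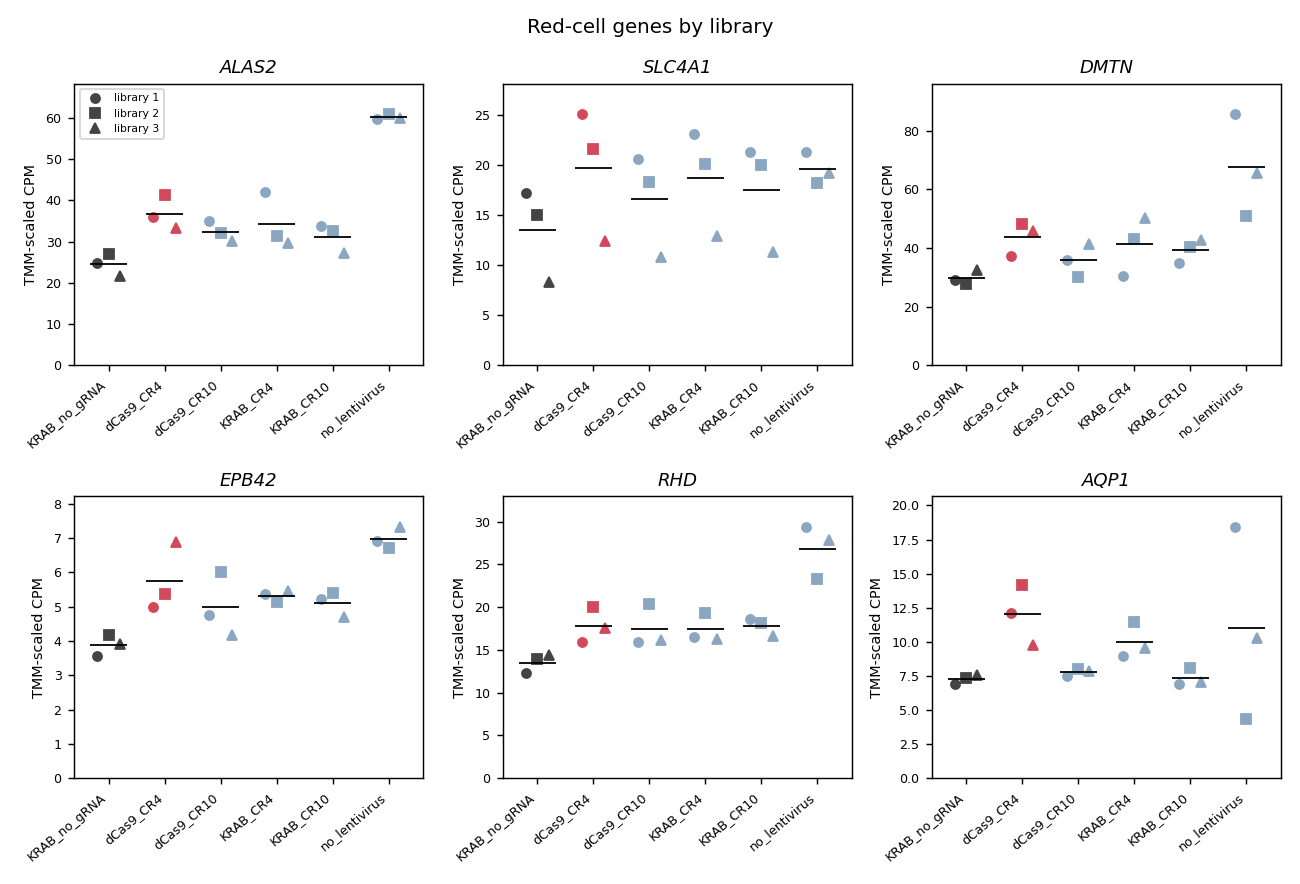
CPM of ALAS2, SLC4A1, DMTN, EPB42, RHD and AQP1 in each library (vertical axis, starting at 0) by group (horizontal axis), with 1 symbol per library number and a bar at the group mean. KRAB_no_gRNA has the lowest mean of the 6 groups in each panel, and AQP1 is the panel in which dCas9_CR4 also lies above every dCas9_CR10 library. The genes shown were named for their difference between dCas9_CR4 and KRAB_no_gRNA.

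Promoter sequences are shown for the 4 genes of the plot of red-cell genes by library that have an entry in the table used. HBD, the 1 gene of the beta-globin cluster with an entry, is set beside them. HBD was not shown to be lower. Its log2 fold change of -0.23 became 0.06 without dCas9_CR4 library 3, and its level in dCas9_CR4 library 1 was 104.7% of that in KRAB_no_gRNA library 1. The sequences therefore do not contrast genes that read higher with a gene shown to be lower. They are RefSeq's on GRCh38.p14, 250 bases up to the transcription start, read 5′ to 3′ on the gene's strand. Capitals mark the letters GATAA (or TTATC on the other strand) and CACCC (or GGGTG), core letters of elements bound by GATA and KLF factors. ALAS2 is at chrX:55030978-55031227 and EPB42 at chr15:43221019-43221268, both on the minus strand. RHD is at chr1:25272236-25272485 and AQP1 at chr7:30911603-30911852, both on the plus strand. HBD is at chr11:5234484-5234733 on the minus strand.
ALAS2: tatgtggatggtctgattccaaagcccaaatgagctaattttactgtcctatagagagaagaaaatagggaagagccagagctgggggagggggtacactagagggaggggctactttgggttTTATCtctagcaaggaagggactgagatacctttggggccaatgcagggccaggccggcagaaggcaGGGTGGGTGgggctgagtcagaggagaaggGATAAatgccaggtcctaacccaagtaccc
EPB42: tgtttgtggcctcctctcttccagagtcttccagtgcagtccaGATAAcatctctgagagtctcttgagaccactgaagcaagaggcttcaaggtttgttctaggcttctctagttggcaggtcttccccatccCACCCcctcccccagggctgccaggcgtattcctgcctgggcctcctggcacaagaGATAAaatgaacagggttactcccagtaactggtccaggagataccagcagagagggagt
RHD: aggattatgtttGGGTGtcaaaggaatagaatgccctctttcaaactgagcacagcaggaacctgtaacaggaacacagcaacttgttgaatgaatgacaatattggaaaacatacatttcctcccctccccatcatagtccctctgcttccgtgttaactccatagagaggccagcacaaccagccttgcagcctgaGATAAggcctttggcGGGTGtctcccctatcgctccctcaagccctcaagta
AQP1: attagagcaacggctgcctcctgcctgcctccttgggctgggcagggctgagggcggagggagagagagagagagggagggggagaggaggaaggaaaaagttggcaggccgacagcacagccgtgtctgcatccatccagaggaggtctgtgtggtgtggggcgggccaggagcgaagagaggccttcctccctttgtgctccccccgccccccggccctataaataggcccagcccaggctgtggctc
HBD: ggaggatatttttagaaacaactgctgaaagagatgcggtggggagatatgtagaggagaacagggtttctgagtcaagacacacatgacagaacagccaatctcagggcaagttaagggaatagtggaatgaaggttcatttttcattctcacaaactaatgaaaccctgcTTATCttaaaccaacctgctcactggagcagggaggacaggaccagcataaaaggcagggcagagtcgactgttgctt
The ALAS2 window holds 2 GATAA and 2 CACCC matches, the latter pair overlapping, the EPB42 window 2 and 1, and the RHD window 1 and 2. AQP1 holds 0 of either, and HBD holds 1 GATAA and 0 CACCC. Among other red-cell genes described, RHCE and ICAM4 hold 0 and 1, and PPOX and SLC6A9 hold 0 of either, in the first window listed for each. The RHCE and RHD windows share letters but are shifted against each other. That of RHCE ends before the stretch in which RHD has its GATAA, so their counts do not compare the same stretch. Of all 35116 windows of this length 20.4% hold GATAA on either strand, 54.7% hold CACCC and 8.7% hold both. The windows were chosen after the genes' values were seen, and 3 of these 9 hold both. A match is a string of letters and was not tested as a binding site.

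For many of these genes KRAB_no_gRNA read lower on average than each of the other lentiviral groups. The genes were named for their difference from these same 3 KRAB_no_gRNA libraries, and 3 of the 12 libraries with a gRNA are those of dCas9_CR4. The counts that follow are therefore not a separate test. ALAS2 read 35.1, 32.0 and 30.2 CPM in dCas9_CR10, 41.9, 31.4 and 29.7 CPM in KRAB_CR4 and 33.8, 32.6 and 27.2 CPM in KRAB_CR10, so that all 12 libraries with a gRNA lay above the 3 without. The same held for RHD, for SKIL, an inhibitor of SMAD signalling, and for P4HA1, a collagen prolyl hydroxylase, with 12 of 12 libraries each. It held for 11 of 12 in EPB42 and RHCE and 10 of 12 in DMTN and ICAM4. The number was 9 in AQP1 and CA1, 8 in SLC4A1 and SLC6A9, 6 in SLC25A37 and 5 in PPOX. The share of all tested genes with such counts was not computed. Between dCas9_CR4 and dCas9_CR10 the log2 fold change was 0.18 for ALAS2 (95% interval -0.14 to 0.50), 0.25 for SLC4A1 (-0.45 to 0.95) and 0.03 for RHD (-0.29 to 0.35). The untransduced cells read higher still for ALAS2, at 60.3 ± 0.615 CPM, and for RHD, at 26.9 ± 3.22 CPM (SD, n = 3 each). EPB42, RHCE, DMTN, ICAM4, PPOX and SLC6A9 also had their highest group mean in untransduced cells. SLC4A1, AQP1, SLC25A37 and CA1 did not. CA1 read 6.23 ± 0.769 CPM in untransduced cells, below its 7.60 ± 1.87 CPM in KRAB_no_gRNA (SD, n = 3 each).

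The loss of the KRAB domain was also compared with the gRNA held the same, in libraries that the main comparison does not use. Between dCas9_CR10 and KRAB_CR10 the log2 fold change was 0.06 for ALAS2 (95% interval -0.26 to 0.37), -0.08 for SLC4A1 (-0.79 to 0.62), -0.13 for DMTN (-0.57 to 0.30), -0.04 for EPB42 (-0.43 to 0.36) and -0.03 for RHD (-0.35 to 0.29). The median over the red-cell membrane and maturation list was 0.02. CA1 read -0.57 (-0.97 to -0.17), in the opposite direction to its 0.39 in the main comparison. Here 3 genes passed, HBE1, HBG2 and HBG1 (0.0204% of genes tested, against 7 genes or 0.0479% with the block and 4 or 0.0272% with DESeq2), each higher without KRAB, with log2 fold changes of 2.17, 1.16 and 1.02 and adjusted edgeR p values of 1.66e-07, 0.0076 and 0.0293. The 4 genes that joined them with the block were HBBP1 and HBD, higher without KRAB, and ACSM3 and PCSK1N, lower without it.

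AQP1 differed between the 2 gRNAs without KRAB by more than the other red-cell genes described. It read 7.50, 8.04 and 7.89 CPM in dCas9_CR10 and 9.74 to 14.2 CPM in dCas9_CR4, with no overlap and a log2 fold change of 0.62 (95% interval -0.08 to 1.32, at an adjusted edgeR p of 1). In KRAB_CR4 it read 8.99, 11.4 and 9.54 CPM and in KRAB_CR10 6.89, 8.07 and 7.02 CPM. Each of the 6 libraries with CR4 lay above each of the 6 with CR10. AQP1 was singled out after its values were seen, and the share of all tested genes separated in this way was not computed. The untransduced libraries ranged from 4.34 to 18.4 CPM, wider than all lentiviral libraries together.

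**Figure D4:**
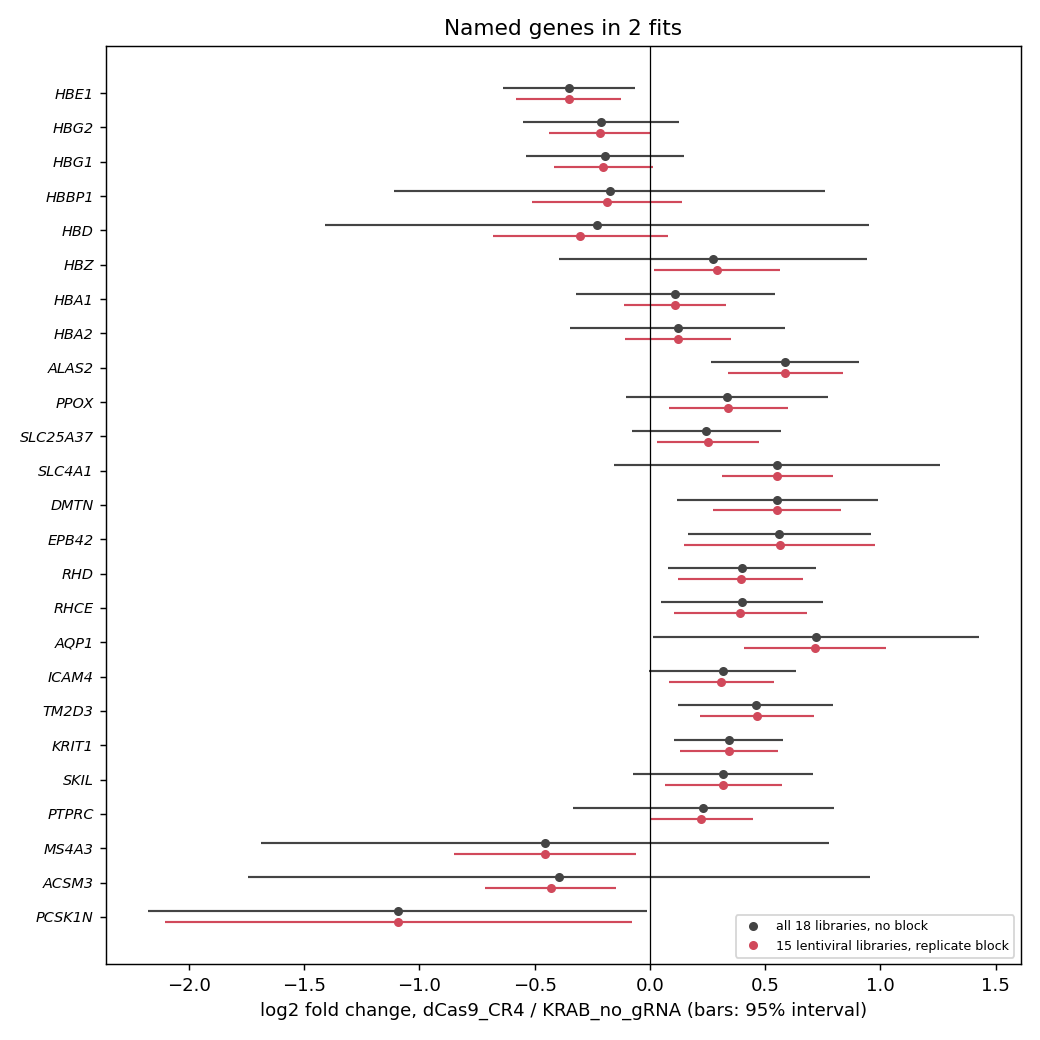
Log2 fold change of dCas9_CR4 over KRAB_no_gRNA (horizontal axis) with its 95% interval for 25 named genes (vertical axis), from the fit of all 18 libraries and from the 15 lentiviral libraries with the library number as a block. The block narrows the intervals of SLC4A1, AQP1 and ACSM3 and leaves the point values almost in place.

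A few genes lay lower on average with dCas9 than with dCas9-KRAB both in the main comparison and between dCas9_CR10 and KRAB_CR10. PCSK1N, which encodes the proSAAS precursor of neuroendocrine peptides, had 14, 16 and 8 counts in dCas9_CR4 against 26, 32 and 16 in KRAB_no_gRNA, or 0.446 ± 0.111 CPM against 0.962 ± 0.311 CPM (SD, n = 3 each) with no overlap. The log2 fold change was -1.09 (95% interval -2.18 to -0.01, at an adjusted edgeR p of 1). It was -2.87 (-3.97 to -1.77) between dCas9_CR10 and KRAB_CR10, at an adjusted edgeR p of 0.0946 without the block and 0.00272 with it. ACSM3, a mitochondrial acyl-CoA synthetase, read 39.0, 41.3 and 103 CPM against 63.2, 49.6 and 127 CPM. Each dCas9_CR4 library lay below the KRAB_no_gRNA library of its own number, and the number-3 libraries were highest in both groups. Its log2 fold change was -0.39 with all libraries and -0.43 (-0.71 to -0.15) with the block, and 0.13 once KRAB_no_gRNA library 3 was left out. Between dCas9_CR10 and KRAB_CR10 it was -0.96 (-2.32 to 0.39) without the block, at an adjusted edgeR p of 1, and -1.10 (-1.38 to -0.81) with it, at an adjusted edgeR p of 3.6e-05. ACSM3 was singled out after its values were seen. MS4A3, a myeloid membrane gene, read 5.95, 6.20 and 8.90 CPM against 7.54, 9.58 and 11.7 CPM, a log2 fold change of -0.46 (-1.69 to 0.78), and -0.67 between dCas9_CR10 and KRAB_CR10.

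In the other direction, TM2D3 and KRIT1 lay higher without KRAB in both comparisons. TM2D3, a membrane protein gene, read 36.6, 41.0 and 32.3 CPM in dCas9_CR4 against 29, 29.6 and 21.4 CPM, a log2 fold change of 0.46 (95% interval 0.12 to 0.80) with no overlap. In dCas9_CR10 it read 34.8, 31.3 and 29.5 CPM and in KRAB_CR10 23.7, 23.3 and 24.6 CPM, a difference of 0.42 (0.08 to 0.75). KRIT1, which encodes a junction protein of blood vessels, read 108, 95.3 and 107 CPM against 87.5, 80.3 and 77.3 CPM, a log2 fold change of 0.34 (0.10 to 0.58). Between dCas9_CR10 and KRAB_CR10 its difference was 0.27 (0.03 to 0.50). The adjusted edgeR p was 1 for each of these 4 differences. ABLIM1, an actin-binding protein gene, was among the 5 smallest p with 22, 18 and 8 counts against 4, 4 and 6, a log2 fold change of 1.59 (0.60 to 2.59) at less than 1 CPM.

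Several stress genes differed more between the library numbers than between the groups. All 13 tested genes of the integrated stress response, which the factor ATF4 drives when amino acids or haem run short, had a log2 fold change above 0, at a median of 0.18, and none passed an unadjusted p of 0.05 with all libraries. With the block 1 did, GDF15, and in the blocked fit of the 2 groups alone 3 did. Without dCas9_CR4 library 3 the number above 0 was 1 of 13. CHAC1, a glutathione-degrading enzyme, read 8.23, 10.5 and 57.0 CPM against 7.70, 8.44 and 31.0 CPM, and DDIT4, an inhibitor of mTOR signalling, 152.1, 163.7 and 693.9 CPM against 152.4, 156.1 and 446.3 CPM. Library 3 was highest in both groups for each gene. GDF15, a stress-induced cytokine, read 20.0, 27.9 and 73.8 CPM against 20.9, 18.2 and 50.2 CPM, a log2 fold change of 0.44 (95% interval -1.30 to 2.18) that was -0.33 without dCas9_CR4 library 3. Of 11 genes of serine and amino acid synthesis 9 were above 0 (median 0.11), as were all 10 tested amino acid transporters (0.09), and 24 of 27 genes of sterol and fatty acid synthesis (0.08). No member of these 3 lists passed an unadjusted p of 0.05 with all libraries, and SLC6A9 and HMGCS1, the sterol-pathway synthase, did with the block.

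**Figure D5:**
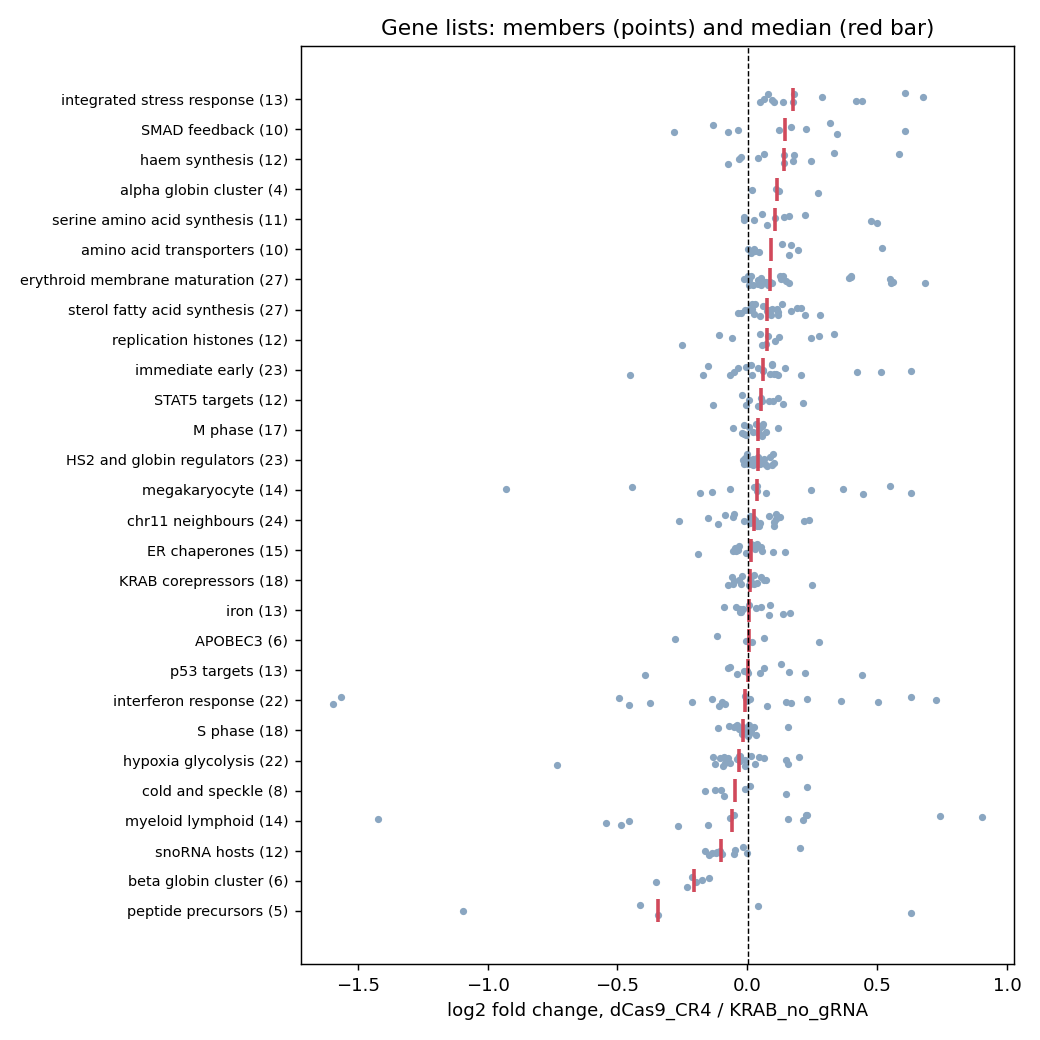
Log2 fold change of dCas9_CR4 over KRAB_no_gRNA (horizontal axis) for the members of 28 gene lists (vertical axis, number tested in brackets), 1 point per gene and a red bar at the median of each list; the dashed line is the median of all tested genes. Most medians lie within 0.2 of 0, with the 5 tested peptide precursor genes lowest and the integrated stress response highest. Without dCas9_CR4 library 3, 1 of the 13 tested integrated stress response genes was above 0.

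Lists of other lineages and of cell state held few members past an unadjusted p of 0.05. Over all genes 0.272% were higher and 0.177% lower at that edgeR p with all libraries, and 1.34% and 0.493% with the block. Groups that did not overlap were found in 1.49% of all genes on the higher side and 1.13% on the lower. The megakaryocyte list, a fate open to K562 cells, summed to 414.3, 393.8 and 424.4 CPM in dCas9_CR4 against 424.0, 384.2 and 403.2 CPM, and 9 of its 14 tested members were above 0. TUBB1, the platelet tubulin gene, read 14.6 ± 2.23 CPM against 11.3 ± 1.28 CPM (SD, n = 3 each) with no overlap. The myeloid and lymphoid list summed to 162.5, 174.5 and 248.3 CPM against 175.5, 148.4 and 236.1 CPM, with 6 of 14 above 0. Of 22 tested interferon-response genes 9 were above 0, and members stood on both sides. USP18, a brake on interferon signalling, read 2.15 ± 0.58 CPM against 1.29 ± 0.42 CPM (SD, n = 3 each), and it and IRF9, at 5.31 against 4.14 CPM, were higher at an unadjusted p under 0.05 with the block. IFIT1 and IFIH1 lay higher with no overlap, at 0.77 against 0.495 CPM and 1.84 against 1.30 CPM. Their unadjusted edgeR p values were 0.174 and 0.179 with all libraries and 0.147 and 0.123 with the block. XAF1, which promotes cell death, was lower at that threshold in both fits and had 4, 8 and 20 counts against 28, 16 and 48. Its log2 fold change was -1.56 (95% interval -2.95 to -0.18) against KRAB_no_gRNA and -1.62 (-3.00 to -0.23) against dCas9_CR10, with overlapping groups in both and an adjusted edgeR p of 1. In the hypoxia and glycolysis list 7 of 22 were above 0, and NDRG1, a hypoxia-induced gene, read 1.28 ± 0.463 CPM against 2.13 ± 0.135 CPM (SD, n = 3 each) with no overlap. The S-phase list had 7 of 18 above 0 and the M-phase list 12 of 17, and no member of either passed an unadjusted p of 0.05 in either fit. Of 12 host genes of small nucleolar RNAs 2 were above 0, at a median of -0.10, also with none past that threshold.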

How the data were processed

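RNA-seq counts of 18 K562 libraries in 6 groups of 3 were used. Per the labels' protocols, polyadenylated RNA was turned into cDNA and cut by Nextera transposase, which does not mark the strand, so antisense partners cannot be told apart. The authors deposited raw counts per RefSeq transcript, 40709 in each library. Per the submitters' processing notes, Bowtie2, SAMtools, Picard, DESeq, R 3.1.2 and hg19 were used; the counter and its handling of multiply aligned reads are not given in the sources used here. All deposited counts were even (0 odd values), so halved counts were an alternative. Totals ranged from 22805964 to 34032962.

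Transcripts were summed to 24394 genes. Names were matched for 97.87% of accessions, which held 99.02% of counts, through RefSeq and GENCODE tables, and 868 accessions were kept as such. Counts were filtered (filterByExpr, 14713 genes kept), scaled by TMM and tested by edgeR 4.0.16 (R 4.3.3, quasi-likelihood, Benjamini-Hochberg adjustment over all genes, threshold 0.05) in 1 fit of 6 group means. CPM are TMM-scaled. Standard errors come from the F statistic, and 95% intervals use 12 residual degrees of freedom (8 with the block), so an interval and its p can differ slightly at the edge. Scripts were tested on simulated data. DESeq2 1.42.0, other scalings, filters and sample sets, the library number as a block, and leaving out each library were alternatives. Library numbers were read as pairing because every same-number correlation exceeded 0.1. That rule does not separate numbers 1 and 2. dCas9_CR4 library 1 with KRAB_no_gRNA library 2 gave 0.495, above the 0.342 of the 2 libraries numbered 2.

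Named genes were the globin genes and ZNF10, up to 12 highest and 12 lowest called genes (none), up to 4 members per list with the smallest p under 0.05 with the block, and the 5 smallest p overall. CA1, AQP1, SCIN, ATP1B2, ICAM4 and ACSM3 were added after their values were seen, and list members given only as levels illustrate their lists. The comparison, its members and the 30 lists were chosen with earlier results of these data known. Intervals cover library spread and counting error, since reads carry no molecular identifiers.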

Additional observations from a re-analysis of the deposited data

How the results depend on the processing

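The count of genes that passed between dCas9_CR4 and KRAB_no_gRNA, and between dCas9_CR4 and dCas9_CR10, was 0 under every alternative run. With the replicate block it was 0 in the fits of 18 libraries, of 15 lentiviral libraries and of the 2 compared groups, and the block brought no gene past the adjusted threshold in either comparison. The number at an unadjusted edgeR p under 0.05 between dCas9_CR4 and KRAB_no_gRNA did move, from 66 to 94, 267 and 202 in those 3 blocked fits, to 121 with no filter, to 25 with a mean of at least 50 counts, and to 175 without KRAB_no_gRNA library 3 and 149 without dCas9_CR4 library 2. For dCas9_CR10 against KRAB_CR10 the 3 passing genes became 7 with the replicate block in the 15 lentiviral libraries, 7 with it in the 2 groups alone, 5 in the lentiviral libraries without a block and 1 in the 2 groups without a block, and leaving out 1 library gave 1 to 3 (1 without KRAB_CR10 library 2 or 3, or without dCas9_CR10 library 2).

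Of 785 alternative values of 44 gene results, 770 kept their direction and side of the threshold and 15 changed sign, in 9 genes. Leaving out 1 library moved HBE1 from -0.43 to -0.29 and ALAS2 from 0.51 to 0.67 on the log2 scale, and neither passed anywhere. The ranges on leaving out 1 library were -0.46 to 0.062 for HBD (above 0 without dCas9_CR4 library 3, and 0.0045 without KRAB_no_gRNA library 2), -0.44 to 0.107 for HBB, -0.129 to 0.111 for ZNF10, -0.33 to 1.07 for GDF15 and -0.0096 to 0.348 for HMGCS1, all of which changed sign without dCas9_CR4 library 3. ZNF10 did so too without KRAB_no_gRNA library 2. They were -0.035 to 0.294 for HBA2 and -0.034 to 0.246 for HBA1 (below 0 without dCas9_CR4 library 2), -0.112 to 0.131 for HBQ1 (below 0 without KRAB_no_gRNA library 1 or dCas9_CR4 library 2 or 3) and -1.01 to 0.128 for ACSM3 (above 0 without KRAB_no_gRNA library 3). Among genes that kept their sign, HBZ ranged from 0.089 to 0.52, SLC4A1 from 0.30 to 0.78, SLC25A37 from 0.13 to 0.37, CA1 from 0.25 to 0.61, ICAM4 from 0.18 to 0.39, SLC6A9 from 0.29 to 0.64, ATP1B2 from 0.18 to 0.65 and XAF1 from -2.56 to -1.09. HBB read 0.043 in libraries 1 and 2 alone and HBQ1 -0.0017 on halved counts. The fits other than that on halved counts hold fewer libraries, and the cause was not tested further. Genes under 1 CPM, such as HBB, PCSK1N and ABLIM1, are limited by depth.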

Other observations

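SCIN and ATP1B2, which were singled out after their values were seen, were also higher in every dCas9_CR4 library than in the KRAB_no_gRNA library of the same number. SCIN encodes scinderin, an actin-severing protein of secretory and megakaryocytic cells. It read 5.38, 5.72 and 9.23 CPM against 3.49, 3.65 and 4.38 CPM, with no overlap and a log2 fold change of 0.82 (95% interval -0.11 to 1.74, at an adjusted edgeR p of 0.966 with the block). ATP1B2, a beta subunit of the sodium pump, read 28.9, 29.5 and 43.4 CPM against 21.3, 22.4 and 33.0 CPM. Its number-3 libraries were highest in both groups, and its same-number levels were 135.3%, 131.9% and 131.7%. The adjusted p for ATP1B2 was 1 with edgeR in both fits.

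CBX5, which encodes the heterochromatin protein HP1 alpha, was the co-repressor gene with the highest log2 fold change of its list, 0.25 (95% interval -0.15 to 0.65). It read 431.6, 326.3 and 445.7 CPM in dCas9_CR4 against 330.8, 337.0 and 344.2 CPM, so libraries 1 and 3 lay above all 3 KRAB_no_gRNA libraries and library 2 below them. BAMBI, a decoy receptor of TGF-beta signalling, read 29.8 ± 9.78 CPM against 36.3 ± 8.34 CPM (SD, n = 3 each) and SKIL 29.8 ± 3.12 CPM against 23.9 ± 0.297 CPM (SD, n = 3 each), the latter with no overlap. Neither passed the adjusted threshold in either fit.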
